A study of Mus musculus with 45 samples.

Results

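The comparison described here asks what deleting Apoe in microglia does to hippocampal gene expression in mice with early amyloid pathology. It sets 4 hippocampal libraries titled 5xFAD with Csf1r-cre against 5 titled 5xFAD without it, all at 4 months of age, so 9 of the 45 libraries of the series. Members were chosen by sample title alone. Every mouse in both groups was on C57BL/6, carried the floxed allele Apoe(fl/fl), whose exons Cre recombinase can excise, and carried 5xFAD, human transgenes with familial Alzheimer's disease mutations under the neuronal Thy1 promoter. The groups differ by Csf1r-cre, which expresses Cre in microglia and in other cells of the myeloid lineage, so any loss of Apoe need not be limited to microglia. The other groups are those at 4 months without 5xFAD (8 libraries without and 6 with Csf1r-cre) and those at 12 months. In the same order, the 12-month groups hold 7 and 5 libraries with 5xFAD and 3 and 7 without it. All these groups are used to ask whether a difference is particular to 5xFAD at 4 months. Their scatter also enters the limma p of the main comparison, because that model was fitted over all 45 libraries. The labels do not state sex, and they do not say that the numbered samples of a group are separate animals, so the tests measure the scatter among these libraries, part of which may be technical.

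Apolipoprotein E is the main lipid carrier of the brain. Astrocytes make most of it, and microglia switch it on when they gather around amyloid plaques. Plaque-associated microglia are known for a shared programme in which the lipid receptor Trem2 and its adaptor Tyrobp are needed for the rise of Cst7, Clec7a, Itgax and Apoe itself, while homeostatic genes such as P2ry12 and Tmem119 fall. Apoe particles carry cholesterol to neurons and other cells through receptors of the low-density lipoprotein receptor family.

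Values are TPM, a transcript abundance scaled for gene length and for the library's total. Differences are on the log2(TPM + 0.5) scale, which compresses the changes of weakly expressed genes, and a gene is called when its limma p, adjusted by Benjamini-Hochberg over the 18659 genes tested, is under 0.05. The 9 libraries held 15725247 to 20646111 reads in genes. They correlated with the rest of the series at a median of 0.962 to 0.9747, and none stood apart by this measure. The single gene Gm23935 took 28.2% of the TPM in replicate 3 of 5xFAD and 6.94% to 14.8% in the other libraries. That replicate was among the 3 lowest of the 9 for 27 of 30 lysosomal and 16 of 16 oligodendrocyte genes. It was so for 8 of 22 immediate early genes. Its part in the list medians below was not tested. Ddx3y, a Y-linked gene, reached 1 TPM in 2 of the 5 libraries without Csf1r-cre and 3 of the 4 with it. Hippocampal markers of CA pyramidal and dentate granule neurons were present in all 9 libraries, and so were markers of striatum, cortex and thalamus, regions next to the dissection. In bulk tissue, fewer cells of a type and less RNA per cell cannot be told apart.

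Apoe (chr7:19696109-19699188, minus strand on mm10), the targeted gene, did not differ detectably in its total level. The 5 libraries without Csf1r-cre held 3063, 2841, 1945, 2564 and 3706 TPM of Apoe, and the 4 with it held 3068, 3000, 2825 and 2546 TPM. The means were 2824 ± 647 TPM (SD, n = 5) and 2860 ± 233 TPM (SD, n = 4), so every Csf1r-cre library lay inside the range of the others. The difference was 0.05 on the log2 scale, with a 95% interval of -0.43 to 0.53 in the limma model and an exact two-sided permutation p of 0.889 (adjusted p = 0.984 over a panel of 12 genes). Csf1r, whose promoter drives the Cre, was at 30.5 ± 8.80 TPM (SD, n = 5) and 32.4 ± 7.91 TPM (SD, n = 4). As background, astrocytes are the main source of Apoe in brain. Neither the cells that made the Apoe counted here nor the recombined exons were measured, so the total checks the genotype only weakly.

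**Figure D1:**
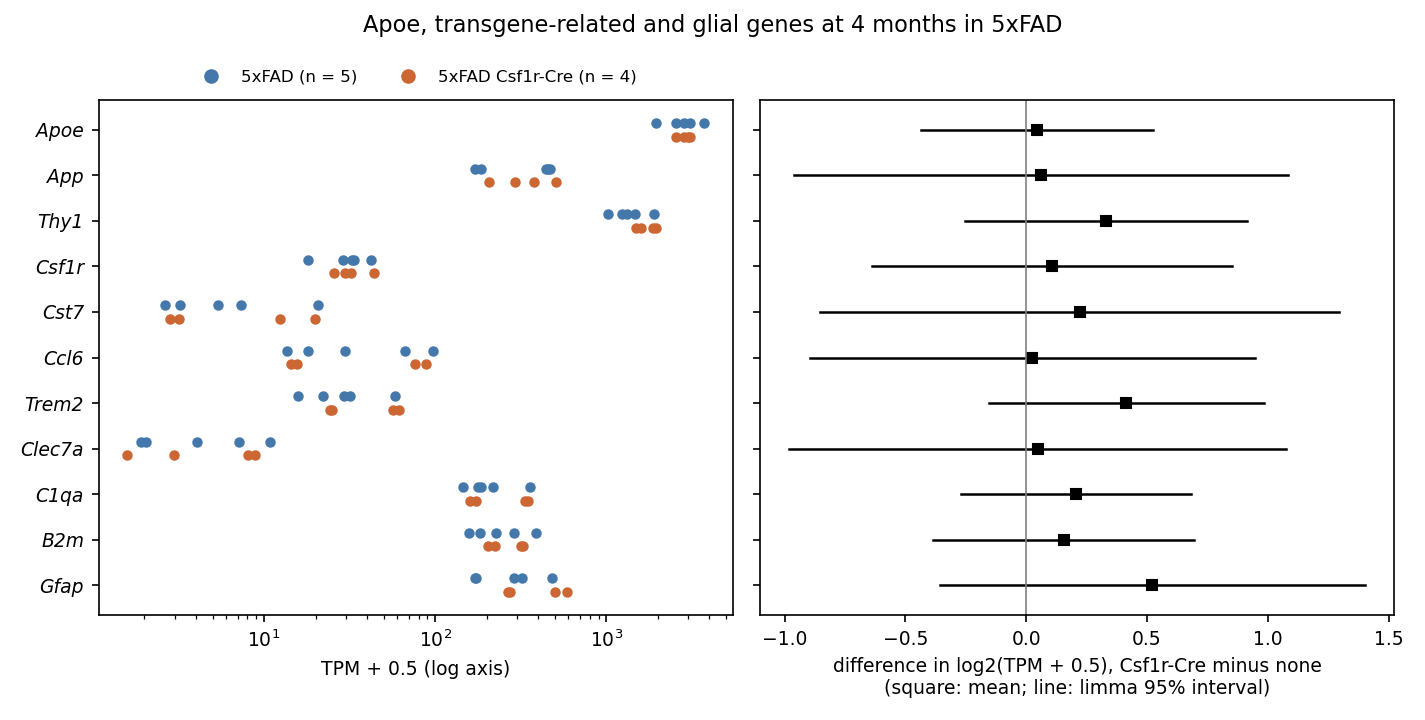
Left, TPM + 0.5 on a log axis for 11 genes in the 5 libraries of 4-month 5xFAD hippocampus and the 4 with Csf1r-Cre, 1 point per library. Right, the difference of the group means in log2(TPM + 0.5), Csf1r-Cre minus none, with the 95% interval of the limma model. All 11 intervals include 0.

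Across all genes, 11 of 18659 were called between the groups, 0.0590% of those tested. Of these, 10 were higher with Csf1r-cre (0.0536%) and 1 was lower (0.00536%). In all, 268 genes had an unadjusted p under 0.05, or 1.44%, where no change at all would give about 933. With fewer small p than that, the test may be cautious for these 9 libraries. Why the count fell short was not tested. The groups did not overlap for 74 genes that were higher with Csf1r-cre (0.397%) and 43 that were lower (0.230%). The median difference over all genes was 0.03 on the log2 scale. In a simulation of this comparison with 18659 genes, the model found 40% of the genes given a log2 change of 1 and 73% of those given 2, so moderate changes can be missed at this size.

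None of the 11 called genes is in a microglial list. Of these, 7 are processed pseudogenes, copies of messenger RNAs pasted back into the genome, and 2 more, Hmga1b and Gm11361, are annotated as coding but are also near-identical copies of another gene. All 9 copies have their closest coding match on chromosome 17, between Wtap and Mrps10 (chr17:12966796-47381417 on GRCm38), at 98.4% to 99.8% identity. The 1 gene that fell, Atp6v0c, is itself one of these parents. Bik, a pro-apoptotic BH3-only protein, is the exception with no such match. The parents have unrelated roles: Atp6v0c encodes the proteolipid of the proton pump that acidifies lysosomes, Rps2 and Rps18 are proteins of the small ribosomal subunit, Mrps10 is their mitochondrial counterpart, Rnps1 works in splicing and the exon junction complex, Wtap belongs to the complex that methylates adenosine in RNA, and Hmga1 is a chromatin protein.

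How closely a copy matches its parent decides how reads can be assigned, so 4 pairs are shown. Each line is an 81-base coding stretch, 5′ to 3′ on the transcribed strand, taken from GENCODE M21 transcripts on GRCm38, the build of the deposited coordinates, and capitals mark the bases at which parent and copy differ. Atp6v0c (chr17:24164802-24164882, minus strand) and Atp6v0c-ps2 (chr6:37806165-37806245, plus strand) differ at this 1 place in 465 aligned bases.
Atp6v0c: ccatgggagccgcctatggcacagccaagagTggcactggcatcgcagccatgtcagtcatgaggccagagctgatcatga
Atp6v0c-ps2: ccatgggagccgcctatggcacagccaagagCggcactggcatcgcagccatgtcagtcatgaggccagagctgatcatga
Rnps1 (chr17:24422169-24422249, plus strand) and Gm9825 (chr6:7982834-7982914, minus strand) differ at 5 of 843 bases.
Rnps1: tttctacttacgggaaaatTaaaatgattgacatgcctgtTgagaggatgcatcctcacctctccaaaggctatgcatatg
Gm9825: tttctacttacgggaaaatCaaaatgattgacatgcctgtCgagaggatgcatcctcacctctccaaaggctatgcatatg
Rps2 (chr17:24720295-24720375, plus strand) and Rps2-ps13 (chrX:52898607-52898687, plus strand) differ at 7 of 882 bases.
Rps2: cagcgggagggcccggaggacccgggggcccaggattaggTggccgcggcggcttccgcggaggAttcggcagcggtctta
Rps2-ps13: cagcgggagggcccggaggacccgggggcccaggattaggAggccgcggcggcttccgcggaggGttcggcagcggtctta
Wtap (chr17:12975360-12975440, minus strand) and Gm14292 (chr2:179177732-179177812, plus strand) differ at 3 of 456 bases.
Wtap: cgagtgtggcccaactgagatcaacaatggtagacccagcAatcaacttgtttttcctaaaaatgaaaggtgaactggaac
Gm14292: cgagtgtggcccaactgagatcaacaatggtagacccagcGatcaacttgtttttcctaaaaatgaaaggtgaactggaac

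Atp6v0c-ps2 had the smallest p. Without Csf1r-cre it was at 14.6, 12.6, 11.1, 19.0 and 27.6 TPM, and with it at 475, 517.5, 427 and 415 TPM. The groups lie far apart, with a log2 difference of 4.78 ± 0.27 (SE, adjusted p = 2.89e-16 in limma). Atp6v0c itself went the other way, from 338, 430, 333, 344 and 447 TPM to 210, 220, 175 and 168 TPM. Every Csf1r-cre library was below every library without it, and the log2 difference was -0.97 ± 0.16 (SE, limma adjusted p = 0.000815, but 0.112 in a fit with only these 9 libraries). As a share of the reads assigned to Atp6v0c or its copy, the copy took 1.32% to 2.75% without Csf1r-cre and 50.8% to 53.1% with it. The sum of gene and copy was 347 ± 33.4 RPM (reads scaled to the library's total in genes; SD, n = 5) and 355 ± 38.7 RPM (SD, n = 4), a log2 difference of 0.03 with an exact permutation p of 0.762. A gain in the copy thus stood beside a like loss in the gene, and their sum did not differ detectably. Which of the reads came from which locus cannot be told from TPM.

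Of the called genes, 3 are copies of Rps2. Rps2-ps10, on chromosome 18, was between 1.14 and 3.58 TPM without Csf1r-cre and at 576, 472, 394 and 582 TPM with it, a log2 difference of 7.51 ± 0.75 (SE, limma adjusted p = 1.08e-08). Rps2-ps13, on the X chromosome, was between 0.0794 and 0.705 TPM and at 3.86, 3.82, 10.97 and 3.49 TPM (log2 difference 2.74, limma adjusted p = 2.09e-06, but 0.0792 in the fit with only these 9 libraries). Gm6311, on chromosome 13, was between 0 and 0.283 TPM and at 1.78, 0.417, 0.584 and 0.821 TPM (log2 difference 1.12, limma adjusted p = 0.0457, but 1 with only these 9 libraries and 0.185 with only the 4-month libraries). Together the 3 copies held 0.0855% to 0.273% of the family's reads without Csf1r-cre and 26.2% to 27.3% with it. Rps2 itself was not called, at 1718 ± 379 TPM (SD, n = 5) and 1494 ± 276 TPM (SD, n = 4).

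The other 5 copies separated the groups too. Hmga1b (chromosome 11) was at 1.44, 0.386, 0.394, 0.356 and 0.426 TPM without Csf1r-cre and at 15.3, 16.0, 16.5 and 15.01 TPM with it, a log2 difference of 3.96 ± 0.67 (SE, limma adjusted p = 0.00152, but 0.159 in a fit with only the 4-month libraries). Gm9825, the copy of Rnps1, was between 0 and 0.40 TPM and between 10.9 and 14.6 TPM (log2 difference 4.08, limma adjusted p = 4.98e-07). Gm11361, the copy of Rps18, was between 2.22 and 5.43 TPM and between 13.9 and 28.1 TPM (log2 difference 2.31, limma adjusted p = 0.00255, but 0.071 with only these 9 libraries and 0.185 with only the 4-month libraries). Gm14292, the copy of Wtap, was between 0 and 0.955 TPM and between 2.41 and 4.02 TPM (log2 difference 2.09, limma adjusted p = 0.00038, but 0.294 with only these 9 libraries). AC154457.3, the copy of Mrps10, was between 0 and 0.118 TPM and between 2.53 and 3.82 TPM (log2 difference 2.74, limma adjusted p = 0.0311, but 0.185 with only the 4-month libraries). For each of these 5 copies, and for Gm6311, the highest library without Csf1r-cre lay below the lowest library with it.

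Summed over gene and copies, none of the 7 families differed detectably between the groups, with exact permutation p from 0.0952 for Wtap to 0.889 for Mrps10 (adjusted p 0.444 to 0.889 over the 7). This sum was added after the calls were seen. For Mrps10, Wtap and Rps18 it is nearly the parent alone, since the copies held little of the family's reads in either group. In those 3 families the sum therefore says little about the copies. The copies' share was 21.8% to 27.9% for Hmga1, 10.6% to 13.3% for Rnps1, 3.69% to 3.84% for Mrps10, 2.68% to 3.99% for Wtap and 1.60% to 2.06% for Rps18 in the Csf1r-cre libraries, and at most 1.27% for any of the 5 in libraries without Csf1r-cre. Of these parents only Atp6v0c was called. Hmga1 was at 59.6 ± 17.4 TPM (SD, n = 5) and 39.4 ± 6.69 TPM (SD, n = 4), with a log2 difference of -0.56 and a limma adjusted p of 1, and Rnps1 was at 52.6 ± 7.09 TPM and 42.2 ± 5.31 TPM, with a log2 difference of -0.31 and a limma adjusted p of 1.

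**Figure D2:**
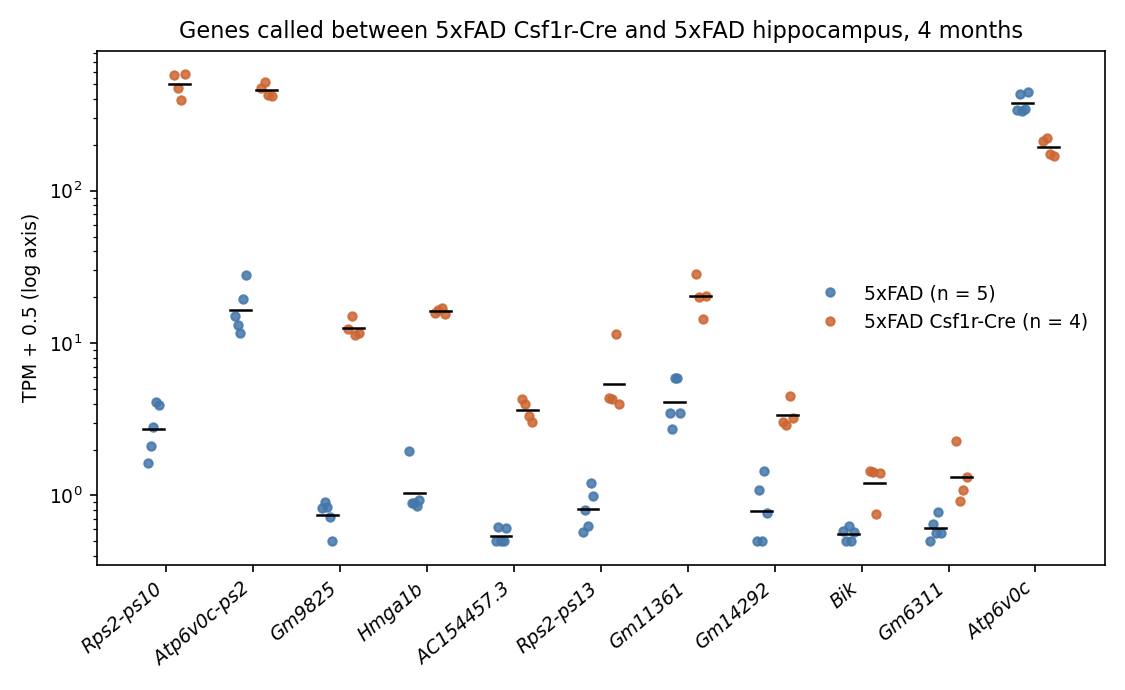
TPM + 0.5 on a log axis for the 11 called genes, 1 point per library, with 5 libraries of 5xFAD and 4 of 5xFAD Csf1r-Cre. Bars mark the mean on the log scale. In 10 genes all Csf1r-Cre libraries lie above all others, and in Atp6v0c all lie below, at 168 to 220 TPM against 333 to 447 TPM.

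The calls were set beside all other pseudogenes. Of 1115 pseudogenes tested, 821 match a coding gene at 95% identity or more over at least 80% of their length, and 43 of these match a gene inside the chromosome 17 span. Among the 43, 7 were called, 33 had a difference above 0 and 13 had an unadjusted p under 0.05. Among the 778 that match a gene elsewhere, 0 were called by limma. Of the 536 genes tested in the span itself 1, Atp6v0c, was called, and the median difference was 0.03. An unadjusted p under 0.05 was found for 16 of them (2.99%, against 1.44% of all genes). A copy near 0 TPM without Csf1r-cre could pass the filter on low values through the Csf1r-cre libraries alone, which favours differences above 0. Several of the 43 also match the same gene, Rps2. Over all genes tested 56.6% had a difference above 0. The span was drawn from the called genes, so these counts are descriptions and were not tested.

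Among the genes with the smallest p beyond the 11 were more on chromosome 17, none of them called. H2-T10, a class I pseudogene, was between 0.236 and 0.454 TPM without Csf1r-cre and between 1.81 and 2.75 TPM with it (limma adjusted p = 0.37). It was called in the fit with only these 9 libraries (limma adjusted p = 0.00366), the 1 of 23 alternatives in which it passed. Its chromosome 17 neighbour and closest match, H2-T22, was between 15.4 and 24.0 TPM and between 8.63 and 12.6 TPM (limma adjusted p = 1). Gtpbp2, a GTPase that acts when ribosomes stall and also lies on chromosome 17, was between 24.6 and 34.3 TPM and between 15.2 and 19.9 TPM (limma adjusted p = 0.97). The groups do not overlap for any of these 3 genes, which were named for their small p between the same libraries. Over all genes 74 were without overlap on the higher side (0.397%) and 43 on the lower side (0.230%). Of the 10 genes with the smallest p on the higher side 2 lie on chromosome 17, the called AC154457.3 and H2-T10. Of the 10 on the lower side 3 do, the called Atp6v0c, H2-T22 and Gtpbp2. Chromosome 17 holds 4.70% of the genes tested. A further 7 on the higher side lie elsewhere but match a gene there, and all 7 are called genes described above. These counts therefore repeat calls already given and were not tested. Of the 821 pseudogenes with a close coding match 6.58% have it on chromosome 17, though Hmga1b and Gm11361 among the 7 are annotated as coding. Outside it, Trhr, the receptor for thyrotropin-releasing hormone, was between 0.481 and 3.46 TPM without Csf1r-cre and between 0.157 and 0.944 TPM with it, and Cradd, an adaptor of caspase activation, was between 4.59 and 6.47 TPM and between 2.50 and 4.06 TPM (adjusted p = 1 for both in limma). Mir491 was listed at 0 TPM in all 5 libraries without Csf1r-cre and at 0.792, 2.56, 1.70 and 0 TPM with it (limma adjusted p = 0.34). It passed in 2 of 22 alternatives, with array weights (limma adjusted p = 0.0297) and without replicate 4 of the Csf1r-cre group, where it was at 0 (0.00566).

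Bik (chr15:83526862-83544634) was the 1 called gene neither on chromosome 17 nor with a match there. It was at 0.0806, 0, 0.132, 0 and 0.0714 TPM without Csf1r-cre and at 0.94, 0.927, 0.253 and 0.904 TPM with it, a log2 difference of 1.13 ± 0.24 (SE, limma adjusted p = 0.0457, but 0.432 with only these 9 libraries). All 4 Csf1r-cre libraries were higher, though all 9 values are under 1 TPM. Its limma call was lost without any 1 library other than replicate 3 of the Csf1r-cre group, where it was lowest. The call of AC154457.3 was lost without any 1 of the 9 libraries, and that of Gm6311 without any 1 but replicate 4 of 5xFAD and replicate 2 of the Csf1r-cre group. Without replicate 1 of the Csf1r-cre group the limma adjusted p was 0.395 for Bik, 0.865 for Gm6311 and 0.175 for AC154457.3. The other 8 calls held without any single library.

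Most of the 11 genes were also called where Csf1r-cre was compared with none in other settings. Without 5xFAD at 4 months 9 genes were called (0.0482%), and 7 of them were among the 11 called in 5xFAD, 63.6% of one list and 77.8% of the other. In 5xFAD at 12 months 11 were called (0.0590%) and 8 were shared, 72.7% of each list. Without 5xFAD at 12 months 13 were called (0.0697%) and 7 were shared, 63.6% of the list at 4 months in 5xFAD and 53.8% of the other. That last count was unstable: it was 37 with array weights (9 shared, 24.3% of the 37), 22 with a pseudocount of 0.1 and 20 with no filter (7 shared in both), and 4 with only the groups compared (all 4 shared). These comparisons share no library, all shared calls had the same direction, and 7 genes were called in all 4: Atp6v0c, Atp6v0c-ps2, Gm14292, Gm9825, Hmga1b, Rps2-ps10 and Rps2-ps13. When each comparison was fitted on its own libraries, 2 genes were called in all 4. Bik, Gm6311 and AC154457.3 were called in 5xFAD at 4 months and in none of the other 3. The lack of a call is not the lack of a difference. In 5xFAD at 12 months AC154457.3 held at most 0.704% of its family's reads without Csf1r-cre and at least 1.895% with it. Without 5xFAD its shares overlapped at both ages. At 4 months they rose to 4.67% without Csf1r-cre and fell to 0% with it. At 12 months they rose to 0.586% without it and fell to 0.102% with it. All 11 genes had the same direction in both 12-month comparisons, and 10 of them did without 5xFAD at 4 months.

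Atp6v0c-ps2 followed the sample titles in all 45 libraries. It was between 9.24 and 59.9 TPM in the 23 titled without Csf1r-cre and between 275 and 543.9 TPM in the 22 titled with it. The 12-month 5xFAD libraries whose strain entry names Csf1r-cre but whose title does not were among the low ones, at 12.07 to 59.9 TPM. The other copies did not all follow the titles outside the 4-month 5xFAD groups. Among the 4-month libraries without 5xFAD, the copies of Rps2 held as little as 0.161% of the family's reads in 1 library titled with Csf1r-cre. In the same library Gm9825 held 0.27% of its family. Hmga1b held 26.6% of its family in 1 library titled without Csf1r-cre and as little as 0.768% with it. Gm11361 held up to 1.71% without Csf1r-cre and as little as 0.303% with it. At 12 months without 5xFAD it held as little as 0.236% with Csf1r-cre. AC154457.3 overlapped without 5xFAD too, as given above. Gm14292 did follow the titles, at no more than 1.07% without and at least 1.485% with Csf1r-cre over all libraries. In 5xFAD at 4 months the shares of all 7 families separated the groups. The families were chosen because their copies were called between these same groups. That separation was therefore largely set by the choice and is no trait of this part.

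**Figure D3:**
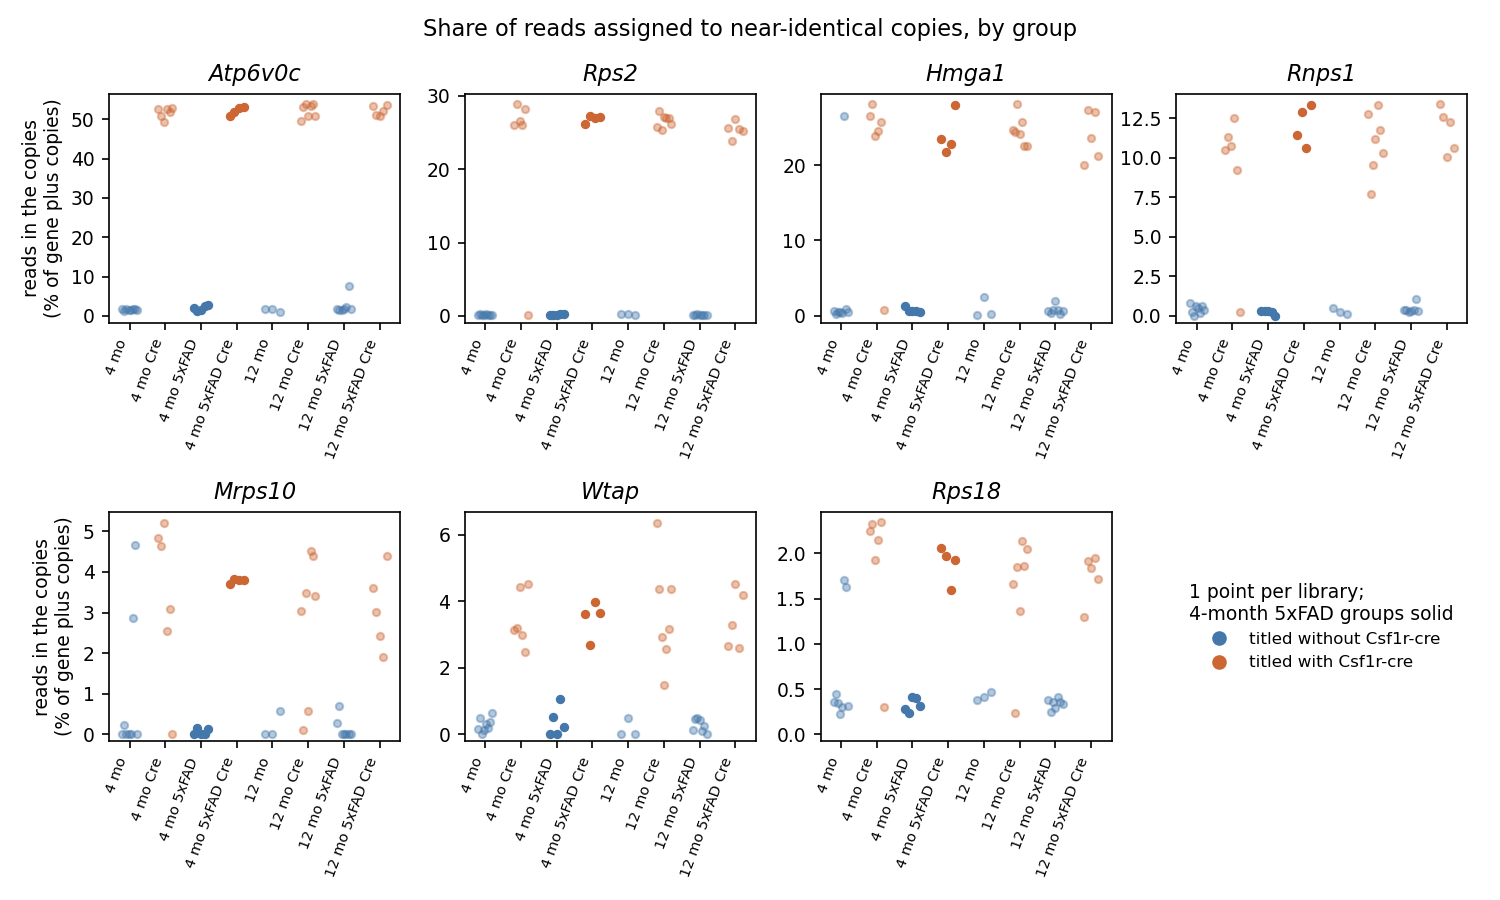
Reads assigned to the called copies as a percentage of the reads of the parent gene plus those copies, for 7 families in all 45 libraries, by age and genotype, 1 point per library. The families were chosen by calls between the 4-month 5xFAD groups (solid points). There the groups overlap in no family, with Atp6v0c at 1.32% to 2.75% against 50.8% to 53.1%. Single libraries of other groups fall on the other side for some families.

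The microglial genes known from the response to plaques gave no call. None of the 35 measured members of the plaque-associated list was called, none had an unadjusted p under 0.05, and 28 lay above 0, with a median log2 difference of 0.06 beside 0.03 for all genes. Dividing TPM by median-of-ratios size factors left 20 of the 35 above 0. Cst7, a cystatin of lysosomes, was at 2.13, 2.74, 4.89, 20.2 and 6.86 TPM without Csf1r-cre and at 11.9, 2.67, 2.30 and 19.5 TPM with it. Ccl6, a chemokine, was at 13.2, 17.5, 66.5, 96.4 and 29.4 TPM and at 75.5, 13.9, 15.1 and 87.2 TPM. Both genes spread over the same wide range in both groups, with log2 differences of 0.22 (95% interval -0.85 to 1.30) and 0.03 (-0.89 to 0.95) and exact permutation p of 0.810 and 0.984.

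Trem2, the microglial lipid receptor through which Apoe particles are sensed, was at 15.3, 21.7, 28.8, 58.0 and 31.3 TPM without Csf1r-cre and at 55.8, 23.7, 24.6 and 61.1 TPM with it. Its log2 difference was 0.41 with an interval of -0.15 to 0.98 and an exact permutation p of 0.460, the largest difference in the list. Tyrobp, the signalling adaptor of Trem2, was at 55.5 to 111 TPM without and 44.9 to 123.5 TPM with Csf1r-cre. Clec7a, a pattern recognition receptor, was at 1.42 to 10.4 TPM and 1.09 to 8.35 TPM, with an interval from -0.98 to 1.08. Itgax, the integrin CD11c, was at 0.591 to 5.97 TPM and 0.905 to 3.85 TPM. Spp1, osteopontin, was at 4.08 to 12.4 TPM and 1.59 to 12.5 TPM. In each of these 5 genes the groups overlapped, and the intervals of Cst7, Ccl6 and Clec7a are wide.

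Within each group the libraries spread widely. Of the 35 plaque-associated genes, 23 were among their 3 highest values in replicate 4 of 5xFAD, 23 in replicate 1 of 5xFAD Csf1r-cre and 22 in its replicate 4. Replicates 1, 2, 3 and 5 of 5xFAD had 2, 9, 1 and 16 such genes, and replicates 2 and 3 of 5xFAD Csf1r-cre had 5 and 4. The same 3 libraries led the homeostatic list, with 14, 15 and 13 of its 18 genes. Their summed homeostatic level was 719, 696.5 and 688 TPM, where the other 6 libraries held 356 to 570 TPM. Each group thus held libraries with high and with low microglial transcripts. Ddx3y was above 1 TPM in all 3 of them and in 2 of the other 6, and the part of sex in the microglial levels was not tested.

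**Figure D4:**
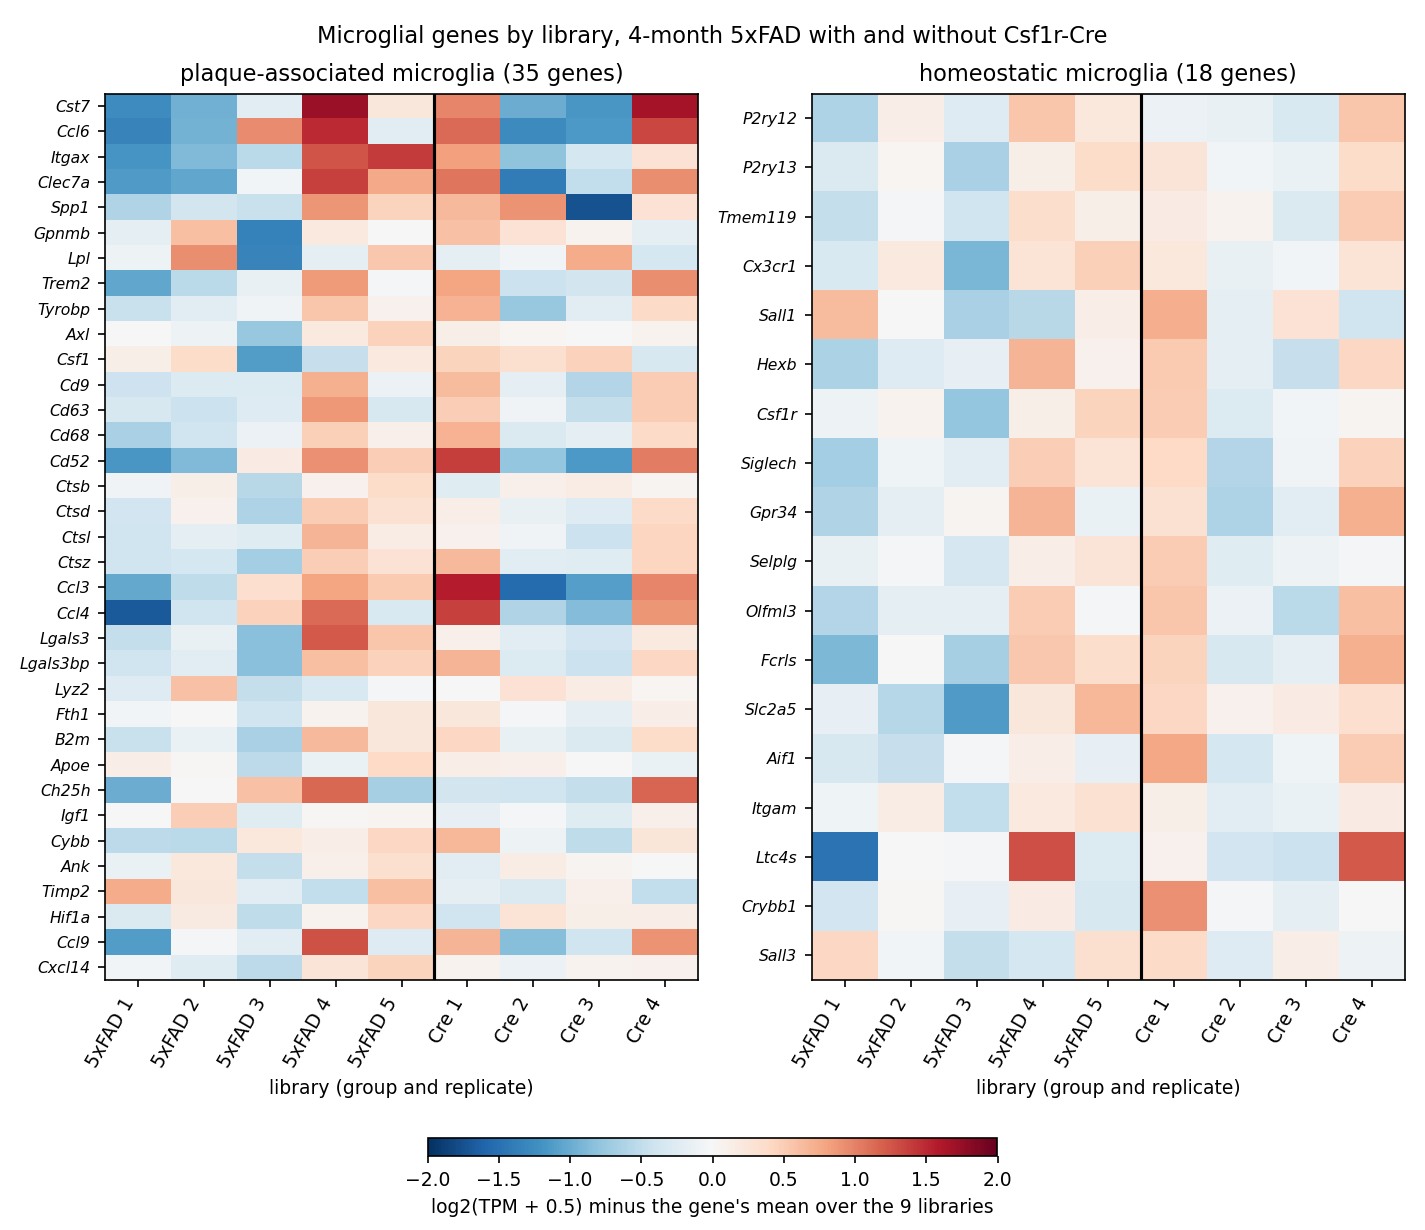
Log2(TPM + 0.5) of 35 plaque-associated and 18 homeostatic microglial genes in each of the 9 libraries, as the deviation from the gene's mean over the 9 (colour). The 5 libraries left of the line are 5xFAD and the 4 right of it 5xFAD Csf1r-Cre. Replicate 4 of 5xFAD and replicates 1 and 4 of 5xFAD Csf1r-Cre are high for most genes of both lists.

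Homeostatic microglial genes gave no call either. Of 18 measured, 16 lay above 0, with a median log2 difference of 0.16. P2ry12, the purinergic receptor of resting microglia, was at 19.7 to 44.9 TPM without and 24.6 to 44.99 TPM with Csf1r-cre (interval -0.53 to 0.51), and Tmem119, a membrane protein specific to microglia in the brain, was at 27.7 to 49.9 TPM and 31.6 to 55.4 TPM (interval -0.29 to 0.69). Aif1, which encodes Iba1, was at 14.5 to 22.1 TPM and 15.8 to 34.8 TPM. Of 21 microglial genes near risk loci for Alzheimer's disease 0 were called by limma and 0 had an unadjusted p under 0.05, and the median was 0.09. Border macrophages, which also express Csf1r, showed low marker levels, with summed markers of 6.30 to 11.5 TPM without and 9.45 to 18.1 TPM with Csf1r-cre, and 9 of 10 genes above 0 but none called.

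Lipid transport, the process Apoe serves, showed no call in any list. Among 9 apolipoproteins 8 lay above 0 with a median of 0.14, and Apoc1, the neighbour of Apoe, was at 5.32 to 14.4 TPM without and 8.67 to 13.5 TPM with Csf1r-cre. Of 19 receptors and lipases 16 lay above 0 with a median of 0.18; Lrp1, an endocytic receptor of Apoe, was at 34.1 to 160 TPM and 32.2 to 150 TPM, and Lcat, which esterifies cholesterol on Apoe particles, was at 37.5 to 68.4 TPM and 51.4 to 70.3 TPM. Of 20 genes of cholesterol efflux and storage 10 lay above 0 with a median of 0.002, and of 24 genes of cholesterol synthesis and its regulation 6 lay above 0 with a median of -0.10. Sqle, which makes squalene epoxide, was at 27.4 to 46.0 TPM and 26.9 to 29.3 TPM. No member of these 4 lists had an unadjusted p under 0.05 in limma.

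Of 30 lysosomal genes, Atp6v0c was the 1 called, and 17 lay above 0 with a median of 0.02, or 11 with median-of-ratios scaling. Complement, antigen presentation and interferon genes were uncalled. Of 13 complement genes 11 lay above 0, with a median of 0.28. C2, a protease of the classical pathway encoded on chromosome 17 inside the span above, was at 0.117, 0.452, 0.48, 0.469 and 0.312 TPM without Csf1r-cre and at 1.31, 1.29, 0.675 and 1.26 TPM with it, without overlap (log2 difference 0.92, unadjusted p = 0.0197 and adjusted p = 1 in limma). C1qa, which starts that pathway, was at 144 to 359 TPM and 159 to 348 TPM. In class I antigen presentation 9 of 14 lay above 0 (median 0.18), with H2-D1 at 62.5 to 171 TPM and 160 to 214 TPM and H2-T23 at 12.4 to 28.8 TPM and 7.76 to 13.6 TPM. In class II 2 of 6 lay above 0 (median -0.43), with H2-Aa at 2.05 to 15.7 TPM and 0.897 to 2.81 TPM. These H2 genes all lie on chromosome 17. Interferon response genes lay above 0 in 23 of 26 cases with a median of 0.12. Among 22 cytokines and receptors the chemokine Ccl5 was at 1.28, 1.24, 0.669, 1.45 and 1.24 TPM without Csf1r-cre and at 0.341, 0.366, 0.244 and 0.218 TPM with it. All 4 Csf1r-cre values were lower, but Ccl5 did not pass (log2 difference -1.06, unadjusted p = 0.0163 and adjusted p = 1 in limma).

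Astrocyte reactivity was not called. Of 20 reactive astrocyte genes 18 lay above 0, with a median of 0.26. Gfap, the intermediate filament that rises in reactive astrocytes, was at 171, 322, 173, 478 and 288 TPM without Csf1r-cre and at 584, 264.5, 273 and 502 TPM with it. The highest values were in the libraries with high microglial transcripts, and the log2 difference of 0.52 had an interval of -0.36 to 1.40 and an exact permutation p of 0.286. General astrocyte markers had a median of 0.03. All 16 oligodendrocyte markers lay below 0, with a median of -0.20 and summed levels of 2267 to 6630 TPM without and 3163 to 3620 TPM with Csf1r-cre, so the Csf1r-cre range lay inside the other. None was called, and none had an unadjusted p under 0.05.

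No neuronal or region list gave a call. All 11 dentate granule markers lay above 0, with a median of 0.85, and 2 had an unadjusted p under 0.05 in limma, though none was called. Tdo2, tryptophan dioxygenase, was at 1.46 to 8.01 TPM without and 6.19 to 16.0 TPM with Csf1r-cre (log2 difference 1.17, adjusted p = 1). Their summed level was 122 to 379 TPM and 351 to 643 TPM. Of 22 immediate early genes, which respond to neuronal activity, 19 lay above 0 with a median of 0.40; Btg2 was at 5.18 to 11.9 TPM and 6.88 to 16.1 TPM (adjusted p = 1 in limma). Markers of thalamus had a median of 0.48, of striatum -0.39 and of CA pyramidal neurons 0.06, and the summed striatal markers ran from 175 to 1745 TPM without and 274 to 729 TPM with Csf1r-cre. All 6 blood genes lay above 0, with a median of 0.89 and hemoglobin transcripts at 193 to 854 TPM and 363 to 1561 TPM. The part of dissection and blood in the gene lists was not tested. The transgene-related genes Thy1 (1390 ± 329 TPM, SD, n = 5, and 1723 ± 219 TPM, SD, n = 4) and App had exact permutation p of 0.111 and 0.921.

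**Figure D5:**
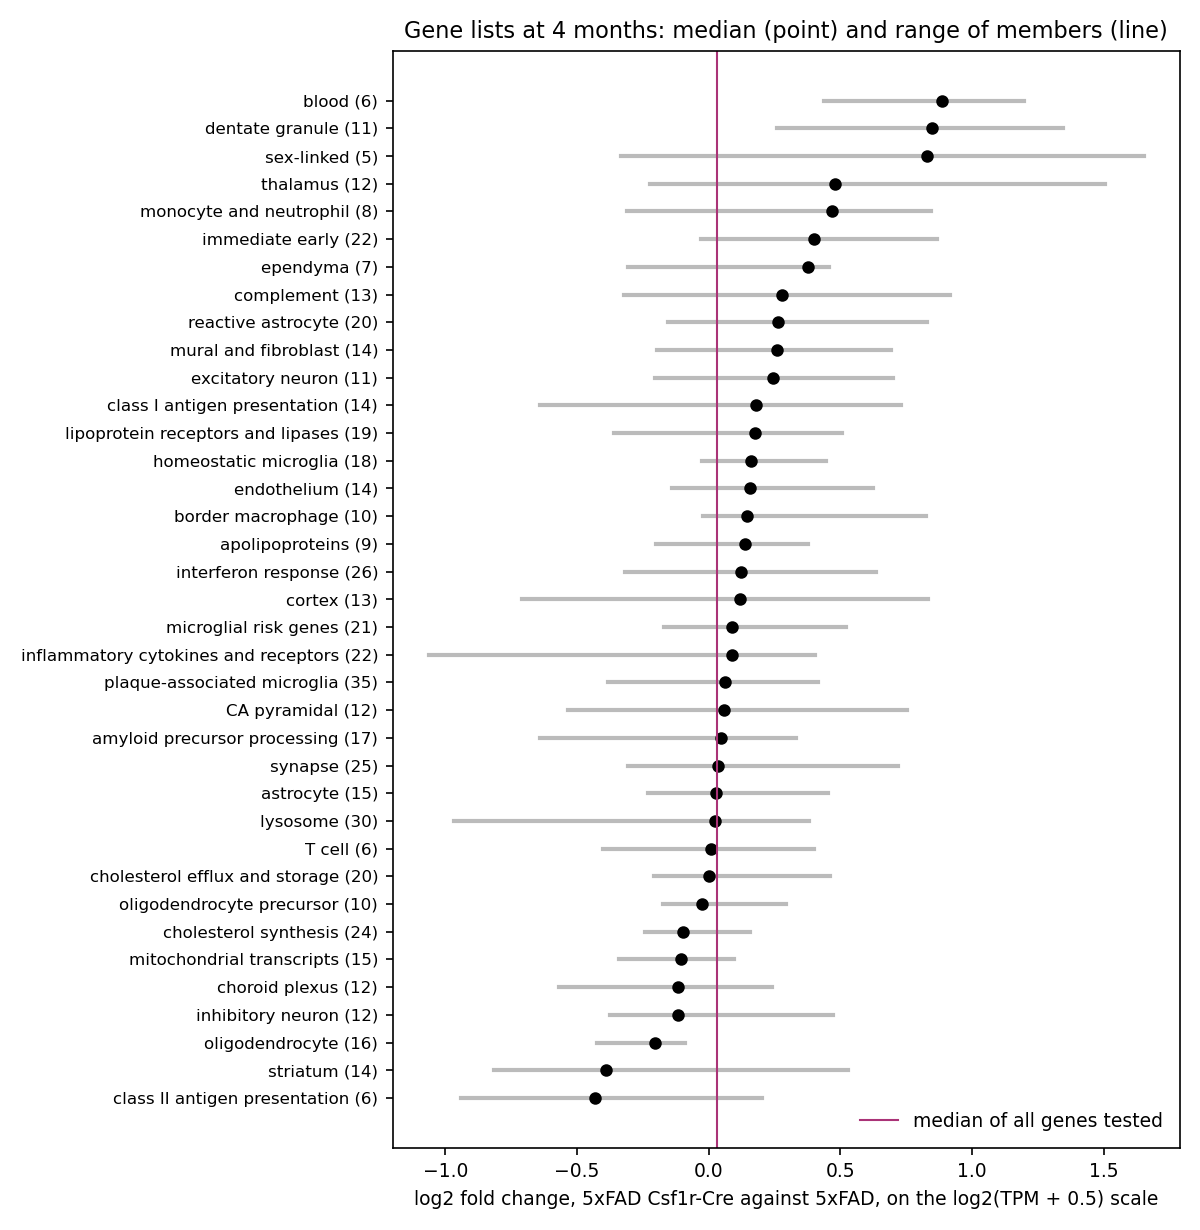
Log2 differences between 5xFAD Csf1r-Cre and 5xFAD at 4 months for 37 gene lists, with the number of genes tested in brackets. Points are list medians, grey lines the range of members, and the vertical line the median of all 18659 genes, 0.03. The plaque-associated list sits at 0.06 and the dentate granule list at 0.85.

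The difference between libraries titled with and without Csf1r-cre was then compared directly between settings. By limma, 0 genes were called for the difference between 5xFAD and no 5xFAD at 4 months (0% of those tested), where 393 had an unadjusted p under 0.05 and the smallest adjusted p was 0.401. Between 4 and 12 months in 5xFAD 0 were called too (0%), with 238 at an unadjusted p under 0.05. For Trem2 the difference between 5xFAD and no 5xFAD was 0.35 with an interval of -0.38 to 1.07, for Cst7 -0.37 (-1.75 to 1.01), for Ccl6 0.09 (-1.10 to 1.27) and for Apoe 0.06 (-0.55 to 0.68), each with a limma adjusted p of 1. For Atp6v0c it was 0.04 (-0.37 to 0.45) and for Atp6v0c-ps2 -0.22 (-0.94 to 0.49). For Bik it was 1.22 (0.60 to 1.84), for Rps2-ps13 1.37 (0.50 to 2.25) and for Gm9825 1.25 (0.02 to 2.47), and none of the 3 passed (limma adjusted p = 1). In replicate 6 of the 4-month Csf1r-cre libraries without 5xFAD, the Rps2 copies held 0.161% of their family's reads and Gm9825 0.27%. The other libraries of that group held 26.0% to 28.9% and 9.20% to 12.5%. Replicate 6 enters the values for Rps2-ps13 and Gm9825, and its part in them was not tested.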

How the data were processed

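The authors deposited 1 table of TPM for 54532 genes in 45 libraries, with coordinates of mm10. The tools named per the submitters' processing notes are featureCounts, STAR, limma and edgeR. Their settings, the use of strand and the handling of reads with several matches were not given in the sources used here. Samples were grouped by title. TPM were analysed as log2(TPM + 0.5) for genes with at least 0.5 TPM in at least 3 samples, with limma 3.58.1 in R 4.3.3, 1 mean per group over all 45 samples, a trended prior, and two-sided tests adjusted by Benjamini-Hochberg at 0.05. A panel of 12 genes was tested with exact permutation tests over the 126 splits of 9 libraries, whose smallest two-sided p is 0.0159; 1 of the 12 is not reported here. Whole reads were recovered from TPM with 1 length per gene, for depth, for read shares and for the sums of a gene and its copies (RPM). Gene matches came from blastn 2.17.0 against GENCODE M21 transcripts; 98.3% of shared genes had the table's coordinates. Named genes were all called genes, the 10 smallest p in each direction with a mean of at least 1 TPM, the panel, and up to 4 genes per list. Parents of called copies, Tyrobp, Itgax, Spp1, P2ry12 and Tmem119 were named after their values were seen. The groups, lists and tests were chosen with earlier results of these data known. Code was tested on simulated data with 200 changed genes, in which 3 of 116 calls were unchanged genes (2.59%). Alternatives covered pseudocounts, filters, scalings, model choices and left-out libraries.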

Additional observations from a re-analysis of the deposited data

Results flagged for a closer look

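Among the 12 panel genes and the 11 called genes, 46 groups of 4 or 5 libraries were examined for a single library far from the rest, and 4 were flagged, where chance alone flags about 5% of groups. Cst7 reached 20.2 TPM in replicate 4 of 5xFAD, where the other 4 libraries held 2.13 to 6.86 TPM. Hmga1b was at 1.44 TPM in replicate 1 of 5xFAD, beside 0.356 to 0.426 TPM in the other 4. Rps2-ps13 was at 10.97 TPM in replicate 3 of 5xFAD Csf1r-Cre, beside 3.49 to 3.86 TPM in the other 3. Bik was at 0.253 TPM in that same library, beside 0.904 to 0.94 TPM in the other 3.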

How the results depend on the processing

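The count of 11 called genes was 8 to 9 when any 1 of the 9 libraries was left out, and 9 to 13 under other pseudocounts, filters, scalings, priors, weights or a Xist covariate. It was 6 with only the groups compared and 7 with only the 4-month samples, fits with fewer samples. The first lost Rps2-ps13, Gm11361, Gm6311, Gm14292, Atp6v0c and Bik and gained H2-T10, and the second lost Hmga1b, Gm11361, Gm6311 and AC154457.3. With the replicate number as a block it was 3 (Atp6v0c-ps2, Rps2-ps10 and Gm9825), and Atp6v0c had a limma adjusted p of 0.669; the numbers give no pairing by the labels, deviations of same-numbered libraries correlated at 0.11, 0.13, -0.17 and 0.59, and 2 of the 4 Csf1r-Cre libraries correlated best with their own number. For Csf1r-Cre against none without 5xFAD, the count at 4 months was 14 with array weights and 4 with only the groups compared, and at 12 months it was 22 with a pseudocount of 0.1, 20 with no filter, 37 with array weights, 8 without the 2 libraries that stand apart and 4 with only the groups compared. In 5xFAD at 12 months it was 21 with no filter and 24 with array weights, and the difference between ages in 5xFAD called 2 with no filter. The cause of these shifts was not tested. Summed with its copy, the log2 difference of Atp6v0c was 0.032.

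The difference in Apoe changed sign with median-of-ratios scaling (-0.0040), rescaling without Gm23935 and mitochondrial transcripts (-0.014) and array weights (-0.035), and was -0.080 to 0.15 with single libraries left out. Ccl6 was -0.025 with median-of-ratios scaling, -0.035 rescaled and -0.025 with the block, and Clec7a was -0.0038 rescaled. With array weights App was -0.16 and Csf1r -0.075. With the block S100b was 0.058, Olig1 0.0029 and Gpr17 0.075. With single libraries left out, the log2 difference ranged from -0.16 to 0.28 for App, -0.42 to 0.45 for Ccl6, -0.30 to 0.52 for Clec7a, -0.077 to 0.23 for Csf1r, -0.29 to 0.68 for Cst7, -0.016 to 0.77 for Apoa2, -0.15 to 0.76 for Ccdc153, -1.07 to 0.31 for Cldn2, -0.41 to 0.075 for Gpr17, -0.29 to 0.0029 for Olig1, -0.032 to 0.62 for Rsph1, -0.22 to 0.058 for S100b, -1.13 to 0.026 for Slc4a5, -0.0065 to 0.24 for Soat1 and -0.90 to 0.13 for Trbc2. None of these genes passed the test under any of these settings.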
